A study of Mus musculus with 4 samples.

Results

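The Frizzled receptors are the 10 genes Fzd1 to Fzd10, taken by symbol from 21690 features that were measured in neural precursors derived from mouse embryonic stem cells. All 10 had values in every library. The family was chosen by gene name, but selected on results that included the knockdown and control FPKM of Fzd7, so the knockdown to control ratios below are given as a description with no test. RNA was sequenced from 3 Geminin knockdown libraries and 1 control library. All came from A2lox, an embryonic stem cell line built for doxycycline-inducible expression and here carrying a construct for inducible knockdown of Geminin, a nuclear protein that restrains replication licensing. Cells of both groups were maintained on feeder fibroblasts and then differentiated in monolayer culture in N2B27, which is a neural medium without serum, and harvested on day 5. The knockdown cultures, from 3 independent experiments, received 500 ng doxycycline from day 3, and the control culture received none. Effects of doxycycline and of the knockdown cannot be told apart, because no culture given doxycycline without the construct was used here.

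Frizzled proteins are multi-pass membrane receptors whose extracellular cysteine-rich domain binds Wnt proteins. With the co-receptors Lrp5 and Lrp6 they recruit Dishevelled and stabilise beta-catenin, and with Vangl, Celsr and Prickle proteins they orient cells in a tissue plane without beta-catenin. In the early neural tube Wnt signalling favours posterior and dorsal fates, and Frizzled genes are expressed there in overlapping regional patterns. Sequence relationships place Fzd1, Fzd2 and Fzd7 in one subfamily, Fzd3 and Fzd6 in another, Fzd5 and Fzd8 in the next, and Fzd4, Fzd9 and Fzd10 in the last.

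Gmnn, the targeted gene, had 27.0, 65.9 and 27.9 FPKM in knockdown libraries 1, 2 and 3, against 113 FPKM in the control. It was marked in the authors' deposited tables of libraries 1 and 3 but not of library 2 (q = 0.0722), where it was at 58.4% of the control. FPKM corrects fragment counts for the length of the exons and for library size, so levels of different genes can be set side by side. Library depth relative to the control was 1.00, 1.15 and 0.972. Of the neural precursor markers Sox1, Sox2, Sox3, Nes, Pax6, Hes5, Fabp7 and Zic1, none of 8 was called, and their summed level was 502, 649 and 524 FPKM in knockdown libraries 1, 2 and 3, against 503 FPKM in the control. The sum hides markers that moved apart: in library 2, Sox1 was at 66.3% of the control and Sox2 at 150%. Hes5 was at 43.9%, 193% and 112% in libraries 1, 2 and 3, and was marked in library 1 only. Throughout, a feature is called higher or lower when it carries the mark of significance in the authors' deposited tables (a Cuffdiff q-value under 0.05) in at least 2 of the 3 tables and in 1 direction, which is the rule stated for the series. Each table sets 1 knockdown library against the same control, so a mark compares libraries, not conditions, and chance deviations of the control recur in all 3 tables. The median feature was at 98.8%, 102% and 101% of the control in libraries 1, 2 and 3.

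By this rule 1 Frizzled gene, Fzd7, was lower and none was higher, while 9 were not called. All 10 had usable tests in at least 2 tables. Over all 14477 features that could be called, 0.905% were lower and 1.98% higher. Fzd1, Fzd2, Fzd6, Fzd7, Fzd9 and Fzd10 lay below the control in all 3 knockdown libraries, and no member lay above it in all 3. Of 11968 features with usable tests in every table and a mean of at least 1 FPKM, 22.9% were below the control in all 3 and 22.7% above it in all 3. Marks in single tables, counted for features that were lower, were on Fzd7 in library 1, on Fzd7 and Fzd10 in library 2 and on Fzd7 in library 3, against 1.52%, 2.02% and 1.28% of the features with a usable test in those tables. Fzd5 had no usable test in the table of library 1, which leaves 9 members under the same criteria. The median Frizzled gene was at 87.2%, 83.4% and 83.1% of the control in libraries 1, 2 and 3.

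**Figure D1:**
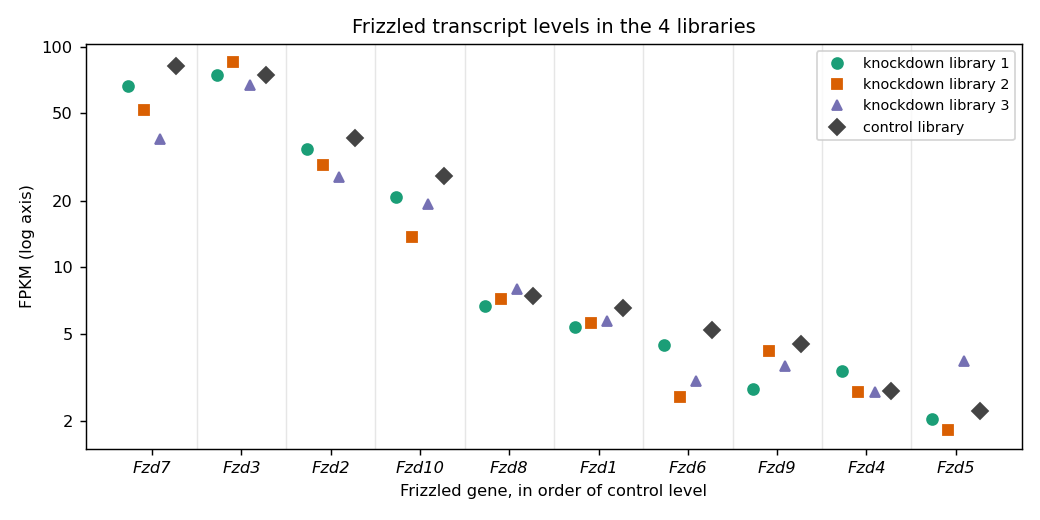
FPKM on a log axis for each Frizzled gene in the 3 knockdown libraries (coloured points) and the control library (diamonds), with genes in order of control level. Fzd7 and Fzd3 lie highest at 38.3 to 85.1 FPKM in knockdown, Fzd5 and Fzd4 lie lowest in the control at 2.23 and 2.73 FPKM, and the Fzd7 diamond is above all 3 of its coloured points.

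Fzd7, a Wnt receptor that is prominent in human embryonic stem cells, lies on chromosome 1 from 59538991 to 59543799 (mm9) and has a single exon. It had 66.8, 51.8 and 38.3 FPKM in knockdown libraries 1, 2 and 3, against 82.1 FPKM in the control. Every knockdown library was below the control, and the spread between knockdown libraries was wide (52.3 ± 14.3 FPKM, SD, n = 3). The level left was 81.3%, 63.1% and 46.6% of the control. The mean log2 ratio, on the log2(FPKM + 1) scale used for all log2 ratios here, was -0.68 ± 0.39 (SD, n = 3). In the authors' deposited tables the q-values for Fzd7 were 0.0379, 0.0415 and 5.12e-06 in libraries 1, 2 and 3. These q-values come from the same values on which the family was selected, so nothing is read from them. They rest on unequal errors. The standard error of the log ratio implied by the authors' deposited table was 0.061 natural log units for Fzd7 in library 1, 0.149 in library 2 and 0.14 in library 3.

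Fzd10, a receptor of the dorsal neural tube, lies on chromosome 5 from 129106981 to 129109968. It had 20.9, 13.7 and 19.4 FPKM in knockdown libraries 1, 2 and 3, against 25.9 FPKM in the control. All 3 were below the control, with library 2 lowest at 53.0% of it. Fzd10 did not meet the rule: in the authors' deposited table it was marked in library 2 only (q = 0.0371), with q = 0.166 in library 1 and q = 0.55 in library 3. Fzd10 supplied 9.46%, 6.72% and 10.9% of the summed Frizzled FPKM in the knockdown libraries, against 10.4% in the control.

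The sequences upstream of these genes are shown because Fzd7 and Fzd10 were the members with any deposited mark, and Fzd4 because it was not below the control in library 1. RefSeq windows (GRCm38.p6, a later build than the mm9 of the values) were found for 6 members, namely Fzd1, Fzd4, Fzd5, Fzd7, Fzd9 and Fzd10. Each line gives the 250 bases before the annotated start, 5′ to 3′ on the gene's strand, all plus, at chr1:59481897-59482146 for Fzd7, chr5:128600856-128601105 for Fzd10 and chr7:89404116-89404365 for Fzd4. Capitals mark matches, on both strands and with overlaps kept, to the TCF/LEF motif, searched as CTTTGA or CTTTGT followed by A or T, and to the GC box GGGCGG.
Fzd7: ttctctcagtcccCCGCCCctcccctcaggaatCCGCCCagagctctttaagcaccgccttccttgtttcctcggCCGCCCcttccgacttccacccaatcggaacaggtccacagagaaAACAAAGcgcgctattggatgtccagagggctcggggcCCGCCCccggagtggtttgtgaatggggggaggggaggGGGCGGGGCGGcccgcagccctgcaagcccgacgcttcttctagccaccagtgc
Fzd10: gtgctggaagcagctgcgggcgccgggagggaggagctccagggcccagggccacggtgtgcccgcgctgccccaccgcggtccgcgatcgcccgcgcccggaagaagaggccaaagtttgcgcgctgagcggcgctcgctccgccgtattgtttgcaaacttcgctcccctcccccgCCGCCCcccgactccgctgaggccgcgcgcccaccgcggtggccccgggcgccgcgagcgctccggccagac
Fzd4: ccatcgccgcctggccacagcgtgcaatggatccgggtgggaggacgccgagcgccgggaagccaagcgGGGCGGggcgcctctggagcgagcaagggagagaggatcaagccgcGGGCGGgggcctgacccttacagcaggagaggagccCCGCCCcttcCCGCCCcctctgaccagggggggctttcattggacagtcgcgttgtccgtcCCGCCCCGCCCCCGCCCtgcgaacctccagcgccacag
Fzd7 had 1 TCF/LEF match, on the minus strand and starting 130 bases before the start, and 6 GC boxes. Fzd10 held 1 GC box and Fzd4 held 7, and neither had a TCF/LEF match in this window. Of the 6 members, 1 had a TCF/LEF match and 5 had a GC box. Of all 32851 such windows, 14.8% and 32.7% had them, so the TCF/LEF count lies near the share of all windows. GC content was 65.2% for Fzd7, 76.4% for Fzd10 and 72.8% for Fzd4. The GC content of all windows, on which GC box matches depend, was not measured.

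The other members of the Fzd7 subfamily were also below the control in every knockdown library, although neither was marked in any table. Fzd2, which acts with Fzd7 in closure of the mouse palate, lies on chromosome 11 from 102465745 to 102469372. It had 34.2, 29.2 and 25.7 FPKM in knockdown libraries 1, 2 and 3, against 38.4 FPKM in the control. Library 3 was the lowest at 67.0% of the control, where the authors' deposited table gave q = 0.126. Fzd1, a receptor for canonical Wnt signalling on chromosome 5 from 4753839 to 4758216, had 5.38, 5.57 and 5.68 FPKM, against 6.51 FPKM in the control. These are the closest knockdown values of any member (85.1% ± 2.37 of the control, SD, n = 3). Taken as a sum, Fzd1, Fzd2 and Fzd7 had 106, 86.6 and 69.7 FPKM in libraries 1, 2 and 3, against 127 FPKM in the control, so the subfamily was at 68.9% ± 14.5 (SD, n = 3).

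Fzd3, which guides axon tracts through planar polarity signalling, lies on chromosome 14 from 65811278 to 65881300 and has 7 exons. It had 74.4, 85.1 and 67.0 FPKM in knockdown libraries 1, 2 and 3, against 74.6 FPKM in the control. The control lay inside the knockdown range, and Fzd3 averaged 101% ± 12.2 of it (SD, n = 3). In each knockdown library Fzd3 was the most abundant Frizzled transcript, whereas in the control Fzd7 was. Fzd7 divided by Fzd3, in FPKM, gave ratios of 0.898, 0.609 and 0.572 in knockdown libraries 1, 2 and 3, against a ratio of 1.10 for the control. Fzd6, the subfamily partner of Fzd3 and a regulator of hair orientation, lies on chromosome 15 from 38837826 to 38869734. Its level was 4.41, 2.57 and 3.05 FPKM, against 5.17 FPKM in the control, which is 85.3%, 49.7% and 58.9% of the control. All 3 libraries were below the control, but the authors' deposited tables gave q = 0.844, 0.245 and 0.373, so Fzd6 was not marked. At these levels the implied standard error was 0.205, 0.313 and 0.266 natural log units.

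Among the low members, Fzd9, a receptor with a role in hippocampal development in mice, lies on chromosome 5 from 135724808 to 135726917. It had 2.80, 4.18 and 3.56 FPKM in knockdown libraries 1, 2 and 3, against 4.50 FPKM in the control. Unlike Fzd6 and Fzd10, it was lowest in library 1, at 62.3% of the control. Fzd4, the receptor of norrin in retinal vessels, lies on chromosome 7 from 96552876 to 96558620, and had 3.38, 2.71 and 2.72 FPKM, against 2.73 FPKM in the control. Libraries 2 and 3 were within 1% of the control and library 1 was at 124% of it. Summed with Fzd10, these genes had 27.1, 20.6 and 25.6 FPKM, against 33.1 FPKM in the control.

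Fzd5 and Fzd8, which act in eye and forebrain development, did not lie on one side of the control. Fzd8, on chromosome 18 from 9212854 to 9216197, had 6.66, 7.19 and 7.93 FPKM in knockdown libraries 1, 2 and 3, against 7.41 FPKM in the control. Fzd5, on chromosome 1 from 64777132 to 64784324, had 2.04, 1.82 and 3.77 FPKM, against 2.23 FPKM in the control. Library 3 alone was above the control for both genes, at 107% for Fzd8 and 169% for Fzd5. The authors' deposited table gave q = 0.386 for Fzd5 in library 3, and listed too few data for a test in library 1.

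**Figure D2:**
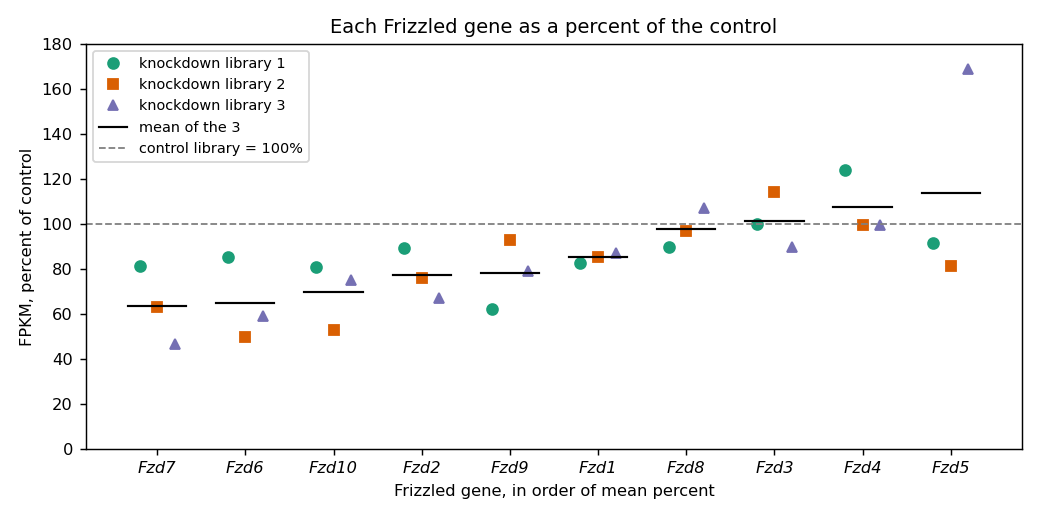
FPKM of each Frizzled gene as a percent of the control library for the 3 knockdown libraries (points) with their mean (bar), the dashed line being the control at 100%. The means run from 63.7% for Fzd7 to 114% for Fzd5, and the 6 genes on the left have all 3 points under the line.

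The levels formed a high and a low set that were the same in every library. Fzd2, Fzd3, Fzd7 and Fzd10 each had at least 13.7 FPKM, the other members each had at most 7.93 FPKM, and the 4 high genes supplied 88.8%, 88.2% and 84.9% of the summed Frizzled FPKM in knockdown libraries 1, 2 and 3, against 88.6% in the control. In the order of knockdown means (Fzd3, Fzd7, Fzd2, Fzd10, Fzd8, Fzd1, Fzd9, Fzd6, Fzd4, Fzd5), neighbours down to Fzd1 and Fzd9 had ranges that did not overlap. The ranges of Fzd3 and Fzd7 came closest, with the lowest Fzd3 value at 67.0 FPKM and the highest Fzd7 value at 66.8 FPKM. From Fzd9 to Fzd5 the ranges of neighbours overlapped, so their order is not resolved beyond their spread.

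The summed Frizzled level was 221, 204 and 177 FPKM in knockdown libraries 1, 2 and 3, against 249.6 FPKM in the control. That is 80.4% ± 8.87 of the control (SD, n = 3). Without Fzd7 the sum was 154, 152 and 139 FPKM, against 167 FPKM in the control, or 88.6% ± 5.00. Fzd7 made up 30.2%, 25.4% and 21.6% of the sum in the knockdown libraries, against 32.9% in the control, while Fzd3 made up 33.7%, 41.7% and 37.8%, against 29.9% in the control. In such bulk samples, fewer cells that express a receptor and less RNA per cell cannot be told apart.

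**Figure D3:**
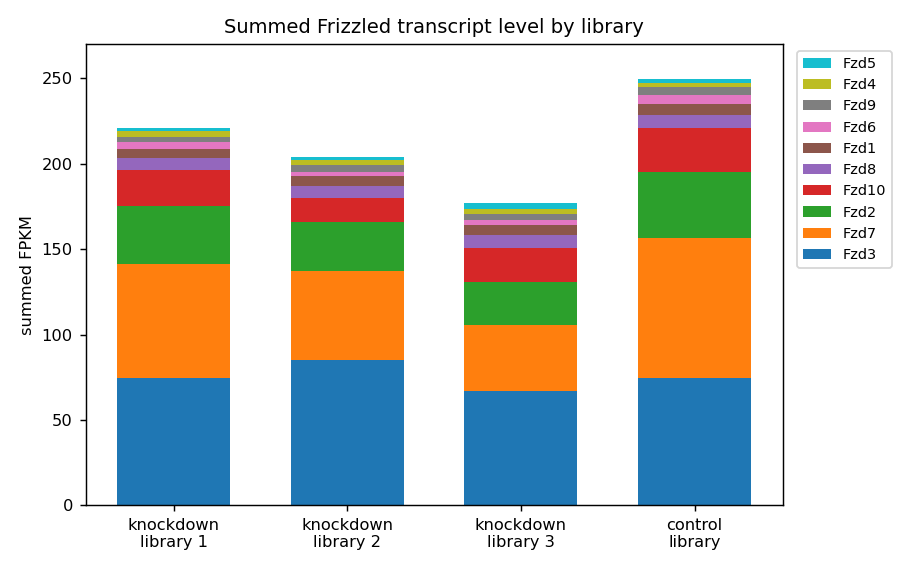
Summed FPKM of the 10 Frizzled genes in each library, knockdown libraries 1 to 3 and then the control, with each gene as a segment. The blue Fzd3 segment varies between knockdown libraries (67.0 to 85.1 FPKM) on both sides of its control height (74.6 FPKM). The orange Fzd7 segment is smaller in each knockdown library (38.3 to 66.8 FPKM) than in the control (82.1 FPKM).

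The members lie on 7 chromosomes, with 3 on chromosome 5 and 2 on chromosome 1. No member overlaps another feature of the deposited tables, so no reads are shared through position. In GENCODE M21 the coding transcripts of 6 members (Fzd1, Fzd2, Fzd7, Fzd8, Fzd9 and Fzd10) have a single exon. Of these, 5 were below the control in all 3 knockdown libraries, the exception being Fzd8. Fzd6, with 7 exons, was the other member that was. Over the 11968 features compared above, 22.9% were. The share among single-exon features was not computed, and a link with exon count was not tested.

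Likeness was measured as the distance between the 3 log2 ratios of a member and those of each feature with a mean of at least 10 FPKM. For Fzd7 the 3 nearest features were Fhl1 (distance 0.13), which encodes a LIM domain protein, Arrb1 (0.14), which encodes beta-arrestin 1, and Sfrp1 (0.17), a secreted Frizzled-related protein. Fhl1 was at 88.8%, 63.0% and 47.4% of the control in libraries 1, 2 and 3, and Arrb1 at 83.2%, 60.6% and 49.2%. Within a distance of 0.25 lay 11 features for Fzd7, 175 for Fzd2 and 1223 for Fzd3, counts that follow from the size of the ratios, since most features lie near the control. The nearest features to Fzd2 were Eme1, Samhd1 and 2310003F16Rik, and those to Fzd3 were Tbpl1, 2210016L21Rik and Nif3l1, and none of these 6 was called. All ratios share the 1 control, and likeness covers 4 libraries only.

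Among 47 other genes of the Wnt pathway, 2 were higher, 4 were lower and 41 were not called, and 43 of the 47 could be called. By the same rule, 0.905% of all 14477 features that could be called were lower and 1.98% higher. The same shares stand beside the counts by role that follow. The genes were listed with earlier results of these data known. Without library 2, or without library 3, no gene of this list met the rule. The 6 called genes were each marked in libraries 2 and 3 only, and both remaining tables must carry a mark. An alternative, limma, has 1 control library here and called few features of any kind. A count of 0 among so few listed genes therefore decides nothing, and nothing is read from it. By limma on log2(FPKM + 1), which uses the spread between libraries, 0 of the 41 listed genes that were tested passed (smallest adjusted p = 0.999). Bcl9, a beta-catenin cofactor, was the 1 with an unadjusted p under 0.05, at 79.1%, 72.9% and 72.3% of the control in libraries 1, 2 and 3, and is named for that reason after its values were seen. Over all 11968 features limma called 0.1% lower and 0.0251% higher, and 152 had an unadjusted p under 0.05.

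Of 6 secreted Frizzled-related proteins and Wnt antagonists, 2 were lower, 0 were higher and 4 were not called, among them Sfrp4 and Wif1, which could not be called. Sfrp1, which binds Wnt through a domain like that of the Frizzleds, had 89.8, 66.5 and 44.0 FPKM in knockdown libraries 1, 2 and 3, against 106 FPKM in the control. Its values, like those of Fzd7, were all below the control. Frzb, another secreted antagonist of this kind, had 6.47, 1.12 and 1.28 FPKM, against 7.56 FPKM in the control. Libraries 2 and 3 were at 14.9% and 16.9% of the control, whereas library 1 was at 85.6%.

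Among 7 planar polarity partners of the Frizzleds, 2 were higher and 1 was lower. Prickle1, a cytoplasmic polarity protein, had 7.08, 20.9 and 12.8 FPKM in knockdown libraries 1, 2 and 3, against 5.45 FPKM in the control. Prickle2, its relative, had 1.04, 3.15 and 2.68 FPKM, against 1.03 FPKM in the control. Celsr1, an atypical cadherin of the same system, had 9.89, 3.37 and 4.62 FPKM, against 10.6 FPKM in the control. For all 3 genes library 1 lay nearest to the control. Of the pair that secretes Wnt ligands, Wls, the carrier of Wnt proteins to the cell surface, was lower, with 151, 65.6 and 84.3 FPKM, against 153 FPKM in the control, and Porcn was not called.

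No call was made among the 6 co-receptors and alternative receptors, 5 genes of receptor turnover and R-spondin reception, 2 of the norrin branch, 10 of cytoplasmic signalling and 8 nuclear factors, nor for Smo, the Frizzled relative that transduces hedgehog signals. Among these genes, Lgr6 of receptor turnover and Ndp of the norrin branch could not be called. Ryk, a tyrosine kinase-like Wnt receptor and the most abundant of the first role by the mean of the 4 libraries, had 41.6, 37.5 and 37.6 FPKM in knockdown libraries 1, 2 and 3, against 35.7 FPKM in the control. Ptk7 was above it in knockdown library 3 (42.7 FPKM) and in the control (37.7 FPKM). Lgr4, a receptor for R-spondins, which keep Frizzleds at the cell surface, had 44.9, 40.9 and 33.9 FPKM, against 41.1 FPKM in the control. Ctnnb1, which encodes beta-catenin, averaged 397 ± 19.0 FPKM (SD, n = 3) in knockdown libraries and had 409 FPKM in the control. The spread between knockdown libraries was wider than that difference. Tcf7l1, a repressive partner of beta-catenin on DNA, averaged 40.3 ± 8.67 FPKM (SD, n = 3), against 48.5 FPKM in the control, and Tspan12, the Fzd4 partner in norrin signalling, averaged 9.12 ± 0.791 FPKM, against 10.1 FPKM in the control. Smo had 49.8, 55.5 and 45.7 FPKM, against 61.3 FPKM in the control, below it in all 3 libraries but marked in the authors' deposited table of library 1 only.

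**Figure D4:**
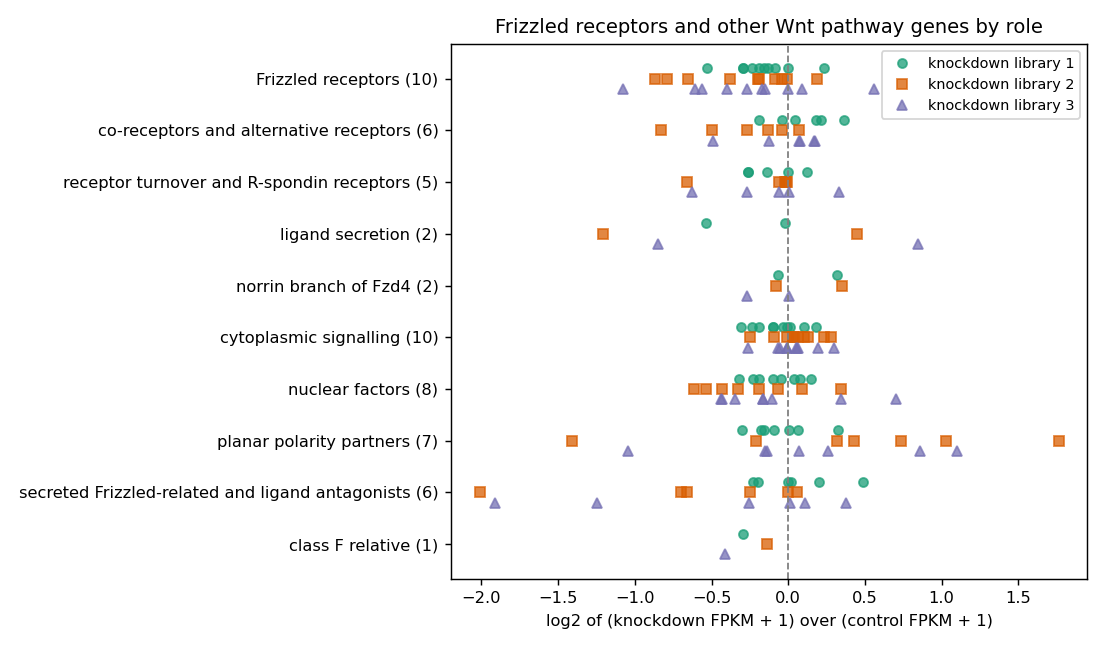
Log2 ratio of knockdown over control, on the log2(FPKM + 1) scale, for the Frizzled genes and for other Wnt pathway genes by role, with 1 point per gene and knockdown library and the number of genes in parentheses. The Frizzled points of library 3 run from -1.08 for Fzd7 to 0.56 for Fzd5, and the points farthest to the left are Frzb, a secreted antagonist, in libraries 2 and 3.

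Markers of other cell types also differed between libraries. The marker lists were chosen with earlier results of these data known. By the rule, 0.905% of all 14477 features that could be called were lower and 1.98% higher. Each marker called here was marked in libraries 2 and 3 only. Epithelial markers were lower in 6 of 6 genes, with a summed level of 196, 22.0 and 49.2 FPKM in knockdown libraries 1, 2 and 3, against 175 FPKM in the control. Pluripotency markers were higher in 7 of 8 genes (72.6, 318 and 521 FPKM, against 51.9 FPKM in the control), and neuronal markers in 5 of 8 (132, 473 and 235 FPKM, against 118 FPKM in the control). Stmn2, a neuronal marker that was not called, was at 113%, 66.6% and 60.5% of the control in libraries 1, 2 and 3, and was marked as lower in the authors' deposited table of library 3. The other uncalled neuronal markers were above the control in every library. Elavl3 was at 113%, 565% and 219% of it. Dcx, which could not be called (0.454 FPKM in the control), was at 115%, 3279% and 1570%. Both were marked in library 2 only. Of 7 feeder fibroblast markers, 6 of which could be called, 2 were higher. Col1a1, Col1a2 and Col3a1, which were not called, were marked as higher in library 3 only, at 300%, 173% and 295% of the control. Thy1 and Fbn1 carried no mark. The sum of the 7 fibroblast markers was 33.2, 50.8 and 78.3 FPKM, against 31.3 FPKM in the control. Of 5 mesoderm, 5 endoderm and 4 neural crest markers none was called, but only 2, 4 and 2 of them could be called. Mesp1, Msgn1 and Afp were listed at 0 in all 4 libraries. The endoderm sum was 55.1, 58.0 and 69.7 FPKM, against 56.1 FPKM in the control. The mesoderm sum was at most 1.92 FPKM in knockdown libraries, against 2.06 FPKM in the control, and the neural crest sum at most 6.04 FPKM, against 3.95 FPKM in the control. In library 1, where Fzd7 was at 81.3% of the control, the epithelial sum was above the control, and the epithelial, pluripotency, neuronal and fibroblast sums were nearer to it than in library 2 or 3. The part of these cell types in the Frizzled levels was not tested in any library.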

How the data were processed

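Expression was measured by RNA sequencing in 3 Geminin knockdown libraries and 1 control library. Per the submitters' processing notes, the authors used TopHat, Cufflinks and Cuffdiff on mm9. Tool versions and the gene models are not stated there. The authors deposited FPKM values for 1 knockdown library and the control in each of 3 tables, with Cuffdiff p-values. The deposited q-value, which exceeds 1 in places, the deposited test statistic and the deposited log ratio of control over knockdown were treated as scores. Shorter files that hold only marked features again were left out.

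Counts are not given, and the absolute depth is unknown, so neither intervals nor floors were computed. Relative depth came from features too low for a test, whose ratios step in whole reads: 84.8% to 87.9% lay within 0.2% of a ratio of whole numbers up to 12. Ratios were formed within a table, since 90.7% and 91.1% of control values in the tables of libraries 2 and 3 equalled those in the table of library 1 within 0.1%. Coordinates are 1-based from the files.

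Log2 ratios used a pseudocount of 1. limma 3.58.1 (R 4.3.3, trended prior) was fitted to log2(FPKM + 1) of features with usable tests in all tables and a mean of at least 1 FPKM, with Benjamini-Hochberg adjustment at 0.05, after a test on simulated data. Its spread comes from the knockdown libraries alone (2 degrees of freedom). With 3 libraries against 1, no exact permutation test was run, since its two-sided p is at least 0.5.

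Members and gene lists were chosen with earlier results of these data known. Named are all members, Gmnn, every called gene of the Wnt list, the most abundant gene of each role with none called, and the 3 features most like each of the 3 most abundant members. Alternatives were leaving out each knockdown library, other numbers of marked tables, a stricter q, other pseudocounts and filters, limma, and rescaling to the median feature.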

Additional observations from a re-analysis of the deposited data

How the results depend on the processing

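With each knockdown library left out in turn, Fzd7 remained the 1 Frizzled gene called lower. This follows by construction from its marks in all 3 tables, so nothing is read from it. The count was 2 when 1 marked table sufficed, which adds Fzd10, and 0 at a q-value under 0.01. No member was called higher under any of these alternatives. With a library left out, the mean log2 ratio of 4 members near the control turned its sign: Fzd3 without library 2 (-0.08), Fzd4 without library 1 (-0.01), Fzd5 without library 3 (-0.14) and Fzd8 without library 1 (0.02). The summed Frizzled level was 76.3% to 85.1% of the control with a library left out, and 80.4% after rescaling.

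In the Wnt list, leaving out a library gave 0 to 2 genes higher and 0 to 4 lower, and marks in all 3 tables, limma, limma with a pseudocount of 0.1 and limma without a filter each gave 0 and 0. In the same list a mark in 1 table gave 3 higher and 5 lower, a q-value under 0.01 gave 2 and 3, and a mean of at least 1 FPKM gave 2 and 4. Over all features, leaving out a library gave 12 to 272 higher and 22 to 120 lower, against 286 and 131. A mark in 1 table gave 758 and 510, and marks in all 3 tables gave 3 and 14. A q-value under 0.01 gave 161 higher and 93 lower, and a mean of at least 1 FPKM gave 269 and 118. limma gave 3 higher and 12 lower, with a pseudocount of 0.1 3 and 6, and without a filter 2 and 226. Requiring both remaining tables, or all 3, lowers these counts by construction, and for limma the cause was not tested. No paired analysis was possible because the groups share only replicate number 1.

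Variation between control cultures was not measured, since there is 1 control library. A deviation of that 1 library would enter every Frizzled ratio. By its replicate number the control goes with knockdown library 1 only. The other knockdown libraries, from separate experiments, have no control of their own number. For them, effects of the knockdown cannot be told apart from differences between experiments. The shared number does not by itself place knockdown library 1 and the control in the same experiment. With 1 library on each side, differences between cultures cannot be told apart from the knockdown there either. The 6 low members had implied errors larger than that of Fzd7 in each table where they had one.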
